A study of Mus musculus with 27 samples.

Results

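The astrocyte genes described here were 10 marker genes chosen by symbol, and all 10 were found by Ensembl identifier among the 52636 gene identifiers of the mouse brain count tables. Astrocytes are the glial cells that wrap synapses and blood vessels. They clear glutamate from the synaptic cleft and turn it into glutamine for neurons, buffer potassium and water through end-feet on capillaries, and are joined to each other by gap junctions. When tissue is injured they enlarge and raise their intermediate filaments. The 10 genes cover these tasks. Gfap encodes the intermediate filament of astrocytes, Aqp4 the water channel of the end-feet, Slc1a2 and Slc1a3 the glutamate transporters GLT-1 and GLAST, and Glul glutamine synthetase. Aldh1l1 encodes a folate enzyme that is used as a marker of all astrocytes, S100b a calcium-binding protein that some oligodendrocytes also make, Gja1 and Gjb6 the connexins 43 and 30, and Agt angiotensinogen, the precursor of the angiotensin peptides.

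RNA was sequenced from frontal cortex (FC) and striatum (STR) of wild-type mice and of mice homozygous for a deletion between H19 and Igf2 (Igf2enh-/-), all on the 129S1 background, of both sexes and about 2.5 months old. The deletion takes out an intergenic enhancer and no gene, is present in every cell, and leaves a loxP site where the selection cassette was cut out. The frontal cortex gave 6 wild-type and 6 Igf2enh-/- libraries with 3 females and 3 males each, and the striatum 7 wild-type (3 females, 4 males) and 8 Igf2enh-/- libraries (4 of each sex). Libraries are named by the number that opens their label, and since no label ties a frontal cortex library to a striatal library of the same mouse, all 27 were treated as independent. Values are counts per 1e+06 counts of the library (CPM) after TMM scaling of all 27 libraries together, and library totals ran from 23686945 to 33926904 counts. The lowest count of any of the 10 genes in any library was 49, for Agt, and none of the others had fewer than 527. The tissue was not sorted, so fewer astrocytes and less RNA per astrocyte cannot be told apart in any value below.

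In 3 libraries the markers of other cell types stood apart. Library 20 (wild-type striatum, male) had the lowest striatal level of all 16 medium spiny neuron genes and the highest of all 16 oligodendrocyte genes, and it was the highest of the 15 striatal libraries for 6 of the 10 astrocyte genes and for 25 of 40 further astrocyte genes. Library 1 (Igf2enh-/- frontal cortex, female) had the lowest frontal cortex level of all 16 oligodendrocyte genes and the highest of 13 of 20 meningeal fibroblast genes and of 17 of 37 reactive astrocyte genes. Library 15 (Igf2enh-/- striatum, female) was the highest of the striatum for all 19 choroid plexus genes, with Ttr, a transport protein of the choroid plexus, at 3055 CPM against a striatal median of 11.3 CPM, and was highest for none of the 40 further astrocyte genes. Other striatal libraries varied in such markers too. Library 22 held 10140 CPM of the oligodendrocyte genes against a striatal median of 6478 CPM. Library 19 held 8168 CPM of the medium spiny neuron genes against a median of 12863 CPM. Calls of the 10 genes that change without libraries 1, 15 and 20 are given with and without them. For genes of the other lists this was done in part only, and their counts of calls are with all libraries unless stated. Igf2, the gene next to the deletion, was used as a check of the genotype labels, and it is also on the meningeal fibroblast list. Its median was 71.1 CPM in wild-type and 119 CPM in Igf2enh-/- frontal cortex, where the groups overlapped, and 37.0 CPM and 51.7 CPM in striatum, where they did not.

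Per length of exon, the 10 genes spread over more than 2 orders of magnitude. Counts were divided by exon length in kilobases (kb) from the GENCODE vM1 annotation, which is older than the one the reads were counted on. In wild-type frontal cortex Glul had the highest level, 456 ± 33.4 CPM per kb (SD, n = 6), followed by Slc1a2 with 216 ± 11.6. Gja1 (66.1 ± 2.76), S100b (65.0 ± 4.85) and Slc1a3 (57.7 ± 2.76) came next, and the ranges of libraries of neighbours in this trio overlapped. Gjb6 (20.1 ± 2.26) and Aqp4 (19.5 ± 1.73) overlapped as well, as did Aldh1l1 (13.8 ± 1.59) and Gfap (12.1 ± 1.34). Agt was last with 1.39 ± 0.283, below every library of each of the other genes. In wild-type striatum Glul and Slc1a2 again led, followed again by Gja1, S100b and Slc1a3, and Agt was again last, at 5.22 ± 2.69 CPM per kb (SD, n = 7). Gjb6 left its place beside Aqp4. At 11.8 ± 2.67 CPM per kb it stood between Gfap (12.1 ± 4.78) and Aldh1l1 (11.5 ± 1.54), and the ranges of these 3 genes overlapped.

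**Figure D1:**
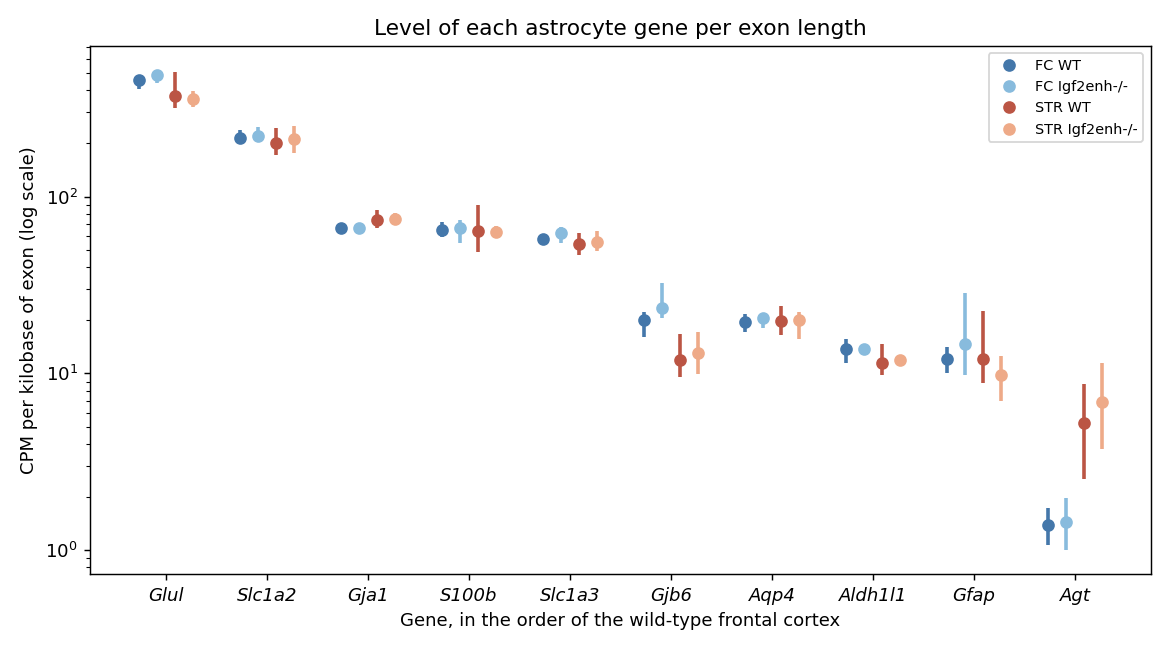
CPM per kilobase of exon on a log axis for the 10 genes, in the order of wild-type frontal cortex. Points are group means and bars run from the lowest to the highest library (n = 6, 6, 7 and 8 from left to right). Glul and Slc1a2 lead in all 4 groups and Agt has the lowest mean in all 4, and Gjb6 lies above Aqp4 in frontal cortex and below it in striatum.

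The first question was how the astrocyte genes differ between striatum and frontal cortex. In wild-type mice 5 of the 10 genes passed the test, Agt and Gja1 higher in striatum and Gjb6, Glul and Aldh1l1 lower. In Igf2enh-/- mice, whose libraries are all different ones, the same 5 genes passed in the same directions, and Gfap and Slc1a3 were called lower as well. These counts of 5 and 7 stand beside a background in which most of the transcriptome differs between the regions. Of 14397 genes tested, 68.8% were called in wild-type mice (34.6% higher and 34.2% lower in striatum) and 69.8% in Igf2enh-/- mice (34.7% higher and 35.2% lower). The share of called astrocyte genes lay below that of all genes in wild-type mice and close to it in Igf2enh-/- mice, where 5 of the 10 were called lower and 2 higher. All 10 genes reached 1 CPM, the minimum for testing, in every library of both regions. The median log2 fold change of the 10 genes was -0.07 in wild-type and -0.12 in Igf2enh-/- mice, against 0.01 and 0.00 over all genes tested. The tests are edgeR's quasi-likelihood F-test on all 27 libraries with sex as a term and Benjamini-Hochberg adjustment over all genes tested, with an adjusted p under 0.05 as the threshold, and both genotypes share 1 estimate of the spread.

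**Figure D2:**
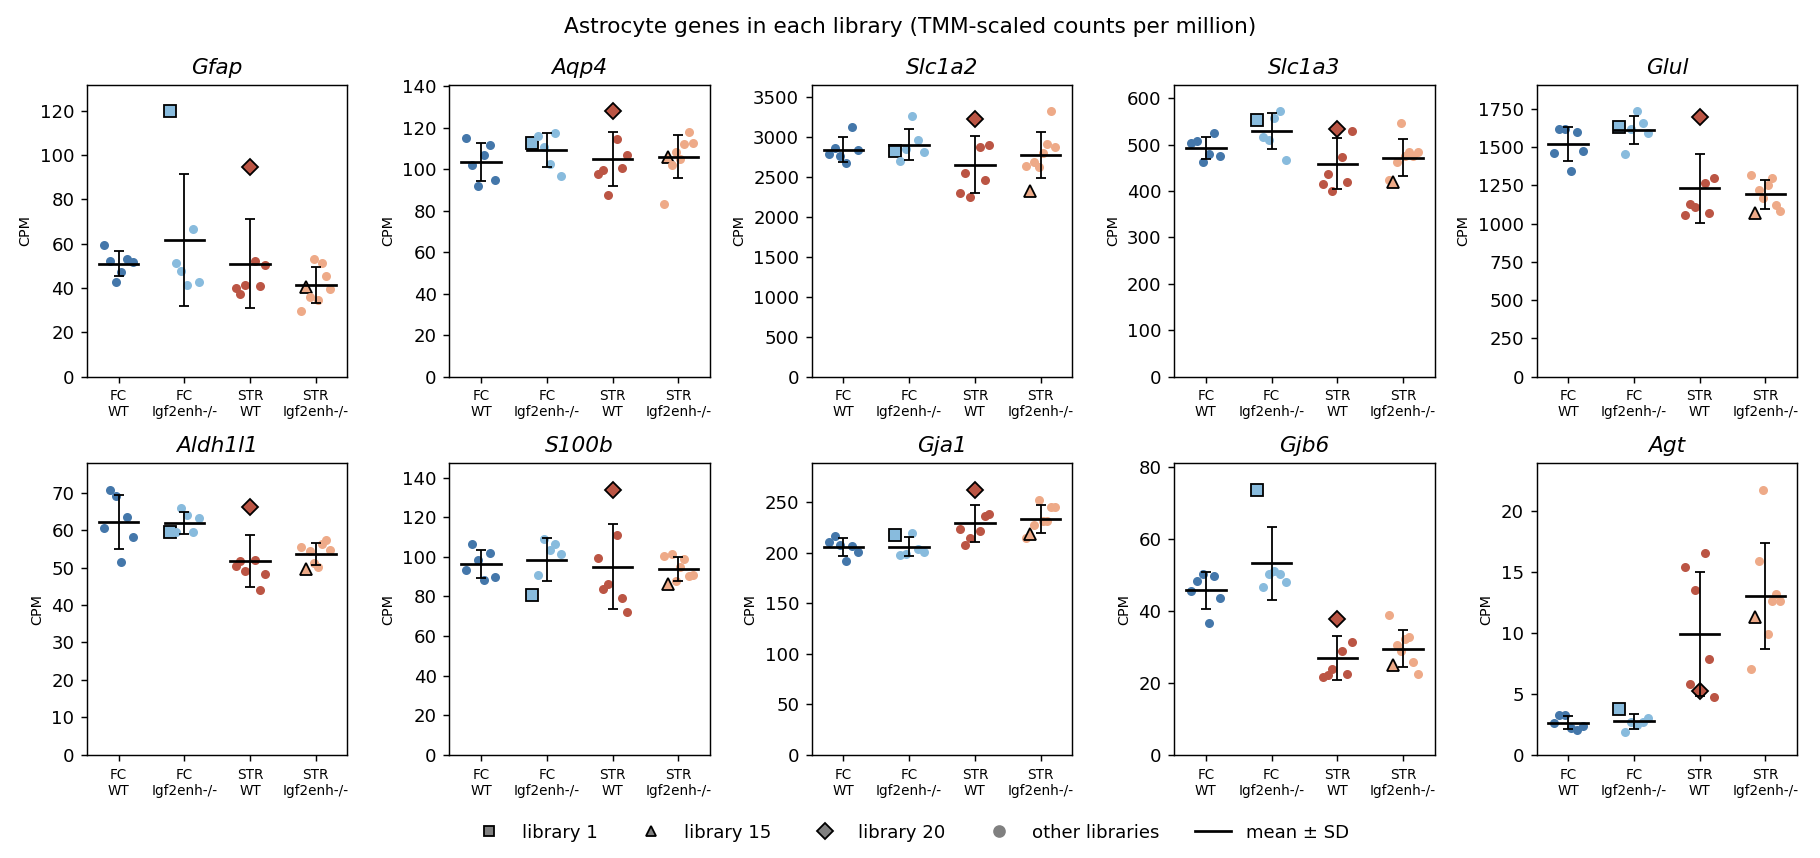
CPM of the 10 genes in each of the 27 libraries, on linear axes that start at 0. Each symbol is a library, the horizontal bar is the group mean and the error bar the SD (n = 6, 6, 7 and 8), and libraries 1, 15 and 20 have their own symbols. Agt lies higher in every striatal library than in any frontal cortex library, Gjb6 and Glul lie lower in nearly all striatal libraries, and Gfap has 1 high library in each region.

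Agt had the widest difference. Its level in wild-type frontal cortex ran from 2.01 to 3.29 CPM (median 2.49), and in wild-type striatum from 4.77 to 16.5 CPM (median 7.89). The Igf2enh-/- libraries ran from 1.89 to 3.72 CPM (median 2.69) in frontal cortex and from 7.05 to 21.7 CPM (median 12.6) in striatum. The groups did not overlap in either genotype, as was the case for 38.9% of all genes tested in wild-type and 43.3% in Igf2enh-/- mice. The striatal level was 3.77-fold higher in wild-type mice (log2 fold change 1.91, standard error (SE) 0.297, edgeR adjusted p = 3.61e-06). With the deletion it was 4.77-fold higher (log2 fold change 2.25, SE 0.291, edgeR adjusted p = 2.06e-07). Agt was also the gene with the widest spread within striatum, with a coefficient of variation of 51.5% in wild-type and 33.4% in Igf2enh-/- libraries, against 20.4% and 22.1% in frontal cortex. Libraries 26, 20 and 16, all wild-type, were the lowest of the striatum with 4.77, 5.26 and 5.83 CPM, and library 19, from an Igf2enh-/- male, was the highest.

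Both connexins of astrocytes differed between the regions, in opposite directions. Gjb6 ran from 36.6 to 50.3 CPM (median 47.0) in wild-type frontal cortex and from 21.7 to 37.8 CPM (median 23.7) in wild-type striatum. Among Igf2enh-/- libraries it ran from 46.8 to 73.6 CPM (median 50.1) in frontal cortex and from 22.5 to 38.9 CPM (median 29.7) in striatum. Of the 7 wild-type striatal libraries 6 lay below every wild-type frontal cortex library, library 20 being the exception, and in Igf2enh-/- mice the groups did not overlap. The log2 fold change was -0.77 in wild-type (SE 0.137, edgeR adjusted p = 2.50e-05) and -0.85 in Igf2enh-/- mice (SE 0.131, edgeR adjusted p = 2.93e-06), so that frontal cortex held 1.70 and 1.80 times the striatal level. Gja1 ran from 191 to 216 CPM (median 207) in wild-type frontal cortex and from 207 to 262 CPM (median 224) in wild-type striatum, where 5 of 7 libraries lay above every frontal cortex library. In Igf2enh-/- mice it ran from 197 to 219 CPM (median 202) and from 214 to 252 CPM (median 232), with 6 of 8 striatal libraries above all of frontal cortex. Its difference was small but passed the test, with log2 fold changes of 0.15 (SE 0.0463, edgeR adjusted p = 0.00567) and 0.18 (SE 0.0449, edgeR adjusted p = 0.00105). The groups overlapped in both genotypes.

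The bases before the start sites of these 3 genes are shown because they are the members that differed furthest, or in opposite directions, between the regions. The 250 bases before each RefSeq start are given 5′ to 3′ on the strand of the gene, from the GRCm38.p6 build. Capitals mark matches, on either strand, to the TATA box TATAAA, the STAT factor motif TTCNNNGAA and the AP-1 motif TGANTCA, which do not overlap each other here.
Agt, chr8:124569707-124569956, minus strand: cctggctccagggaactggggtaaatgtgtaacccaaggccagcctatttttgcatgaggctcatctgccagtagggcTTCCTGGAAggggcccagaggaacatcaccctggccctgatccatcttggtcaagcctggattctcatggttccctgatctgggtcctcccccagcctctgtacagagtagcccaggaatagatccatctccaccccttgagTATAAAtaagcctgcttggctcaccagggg
Gjb6, chr14:57133612-57133861, minus strand: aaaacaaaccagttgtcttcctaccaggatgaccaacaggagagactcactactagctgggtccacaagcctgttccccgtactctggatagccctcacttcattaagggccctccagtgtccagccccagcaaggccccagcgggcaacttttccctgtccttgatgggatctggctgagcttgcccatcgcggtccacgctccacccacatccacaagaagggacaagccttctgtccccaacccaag
Gja1, chr10:56377050-56377299, plus strand: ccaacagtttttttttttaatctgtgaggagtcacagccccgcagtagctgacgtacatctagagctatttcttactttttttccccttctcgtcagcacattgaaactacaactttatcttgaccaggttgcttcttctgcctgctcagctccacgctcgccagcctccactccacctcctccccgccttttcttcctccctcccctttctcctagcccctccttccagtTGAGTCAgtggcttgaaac

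The Agt window held a TATAAA from 30 to 25 bases before the start and a TTCNNNGAA match from 172 to 164 bases before it, and it held no CG dinucleotide. The Gja1 window held a TGANTCA match from 19 to 13 bases before the start and 6 CG dinucleotides, and the Gjb6 window 5 CG dinucleotides and none of the 3 motifs. Of the 32851 windows of this length, 12.4% held TATAAA, 7.02% TTCNNNGAA and 6.75% TGANTCA, and the median window held 6 CG dinucleotides. Among the 9 astrocyte genes with a window, TATAAA and TTCNNNGAA each occurred in Slc1a3 and Agt, TGANTCA in Gja1, and CG dinucleotides ran from 0 in Agt to 15 in Glul. Agt lies on chromosome 8 from 124556587 to 124569706, Gjb6 on chromosome 14 from 57123301 to 57133611 and Gja1 on chromosome 10 from 56377300 to 56390419 in GRCm38.

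Among the genes of glutamate uptake and conversion, Glul (chromosome 1, 153899929 to 153909723 in GRCm38) was lower in striatum. It ran from 1346 to 1621 CPM (median 1537) in wild-type frontal cortex and from 1054 to 1695 CPM (median 1125) in wild-type striatum, with library 20 at the top and the other 6 striatal libraries below all of frontal cortex. The Igf2enh-/- libraries held from 1453 to 1733 CPM (median 1626) and from 1069 to 1314 CPM (median 1191), with no overlap. The log2 fold changes were -0.31 (SE 0.0827, edgeR adjusted p = 0.00160) and -0.44 (SE 0.0796, edgeR adjusted p = 2.68e-05). The glutamate transporters differed less between the regions. Slc1a2 ran from 2674 to 3121 CPM (median 2808) in wild-type frontal cortex and from 2250 to 3221 CPM (median 2552) in wild-type striatum, and from 2694 to 3253 CPM (median 2833) and 2318 to 3315 CPM (median 2739) in Igf2enh-/- mice. Its log2 fold changes of -0.11 (95% interval -0.26 to 0.03) and -0.06 (-0.21 to 0.08) did not pass the test. Slc1a3 ran from 463 to 525 CPM (median 492) in wild-type frontal cortex and from 401 to 534 CPM (median 438) in wild-type striatum, and from 467 to 572 CPM (median 535) and 420 to 548 CPM (median 476) in Igf2enh-/- mice. Its groups overlapped in both genotypes. The log2 fold change was -0.11 in wild-type mice (95% interval -0.24 to 0.01) and -0.17 in Igf2enh-/- mice (SE 0.0591, edgeR adjusted p = 0.0140).

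Aldh1l1 (chromosome 6, 90550768 to 90599171) was lower in striatum in both genotypes. Its level ran from 51.4 to 70.8 CPM (median 62.0) in wild-type frontal cortex and from 43.9 to 66.2 CPM (median 50.3) in wild-type striatum, where library 20 was again the highest. In the Igf2enh-/- libraries it ran from 59.4 to 66.0 CPM (median 61.4) and from 49.7 to 57.4 CPM (median 54.5), and the groups did not overlap. The log2 fold changes were -0.26 (SE 0.0726, edgeR adjusted p = 0.00230) and -0.21 (SE 0.0701, edgeR adjusted p = 0.0111). Aqp4 and S100b were called in neither genotype. Aqp4 had medians of 104 CPM in frontal cortex and 101 CPM in striatum of wild-type mice, and of 112 and 107 CPM in Igf2enh-/- mice, with log2 fold changes of 0.01 (95% interval -0.15 to 0.17) and -0.05 (-0.20 to 0.10). S100b had medians of 95.9 and 86.2 CPM in wild-type and of 102 and 92.9 CPM in Igf2enh-/- mice, and its log2 fold changes were -0.02 (95% interval -0.24 to 0.19) and -0.07 (-0.27 to 0.13).

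Gfap (chromosome 11, 102887336 to 102897200) was a member whose result rested on single libraries. It ran from 42.7 to 59.4 CPM (median 51.9) in wild-type frontal cortex and from 37.1 to 94.8 CPM (median 41.5) in wild-type striatum, the highest value being that of library 20, followed by 52.0 CPM. In Igf2enh-/- mice it ran from 41.5 to 120 CPM (median 49.6) in frontal cortex, with library 1 at the top followed by 66.6 CPM, and from 29.4 to 53.0 CPM (median 39.9) in striatum. The log2 fold change was -0.02 in wild-type mice (SE 0.225, edgeR adjusted p = 0.948) and -0.59 in Igf2enh-/- mice (SE 0.217, edgeR adjusted p = 0.0181). Without library 1 the second value was -0.25 with an edgeR adjusted p of 0.188, so the call in Igf2enh-/- mice was lost. Without libraries 1, 15 and 20 the log2 fold changes were -0.22 (SE 0.128) and -0.26 (SE 0.129), and neither passed.

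Without the same 3 libraries both genotypes again had calls for Agt, Gjb6, Glul, Aldh1l1 and Gja1. Slc1a2 and Slc1a3 were then called lower in wild-type striatum (log2 fold changes -0.14 and -0.13, edgeR adjusted p = 0.0491 and 0.0449). In Igf2enh-/- mice Slc1a3 was no longer called (-0.12, edgeR adjusted p = 0.0861), which also happened without library 1 alone (-0.13, edgeR adjusted p = 0.0520). The 7 and 5 genes called without the 3 libraries compare with the 5 and 7 called with them, and 71.0% and 69.5% of all genes tested were called without these libraries.

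**Figure D3:**
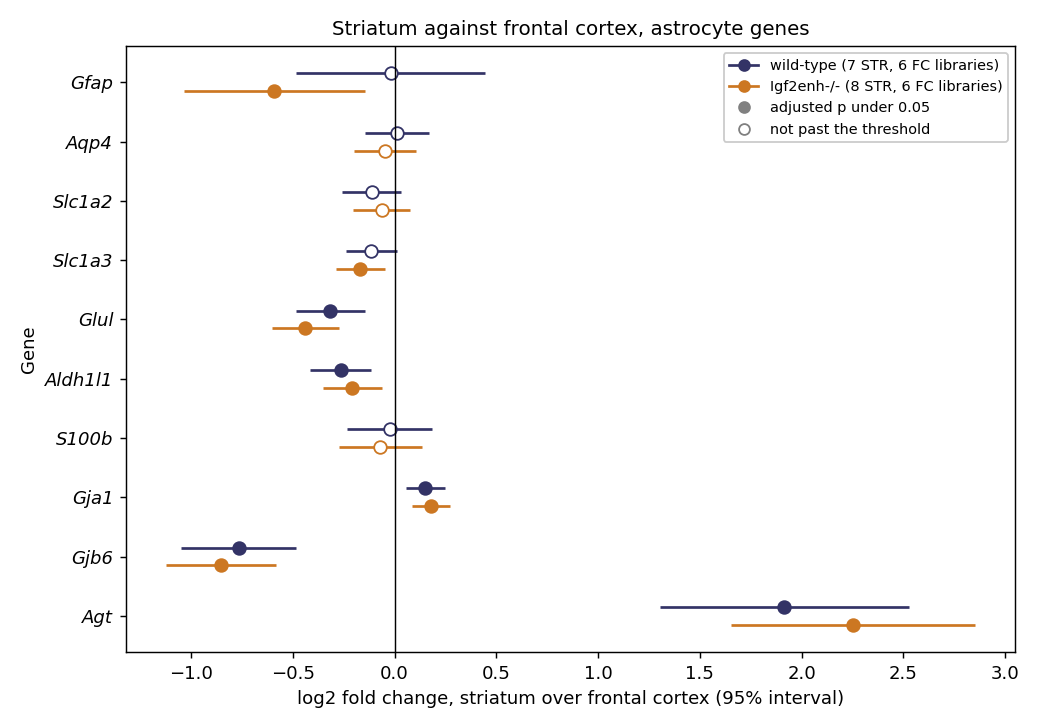
Log2 fold change of striatum over frontal cortex for the 10 genes, with 95% intervals, in wild-type (dark) and Igf2enh-/- mice (orange). Filled points passed the threshold of an adjusted p under 0.05 in edgeR and open points did not, and Agt lies furthest to the right in both genotypes and Gjb6 furthest to the left.

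Whether the region difference itself differed between the genotypes was tested by the interaction of region and genotype. The region by genotype term of edgeR called 0 of the 10 genes and 0 of all 14397 genes tested (0%), with 0 of the 10 and 418 of all genes (2.90%) at an unadjusted p under 0.05. DESeq2 and edgeR's likelihood ratio test also called 0 of the 10. The widest of the 10 terms was that of Gfap, -0.57 (SE 0.312, unadjusted p = 0.0786, edgeR adjusted p = 1.00), and it was -0.04 without libraries 1, 15 and 20. The term of Agt was 0.34 with a 95% interval from -0.50 to 1.18.

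Levels of other cell types also differed between the regions and stand beside these results. The 16 oligodendrocyte genes summed to between 1163 and 2397 CPM in frontal cortex and between 5326 and 11552 CPM in striatum, and all 16 were called higher in striatum in both genotypes. Of 16 pan-neuronal genes 12 were called lower in striatum in each genotype, and their sum ran from 12270 to 13708 CPM in frontal cortex and from 7838 to 9887 CPM in striatum. Of the 14 meningeal fibroblast genes that reached 1 CPM in every library of both regions, 13 were called lower in striatum in each genotype. A further 5 were tested only through their level in frontal cortex and are not counted here. The 40 further astrocyte genes summed to between 7467 and 9143 CPM in frontal cortex and between 7452 and 9591 CPM in striatum, which overlap widely. The part of the other cell types in the differences of the 10 genes was not tested.

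Other astrocyte genes were called in both directions too. Of the 40 further astrocyte genes, all of which were tested, 10 were called higher and 7 lower in wild-type striatum, and 9 higher and 11 lower in Igf2enh-/- striatum, beside 68.8% and 69.8% of all genes called in either direction. Without library 20 the wild-type counts were 9 higher and 11 lower, and without libraries 1, 15 and 20 the Igf2enh-/- counts were 11 higher and 7 lower. Their median log2 fold change was -0.02 and -0.04 with all libraries. The 4 of smallest p in wild-type mice were Id4, an inhibitor of differentiation (log2 fold change 2.43), Slc4a4, a sodium bicarbonate cotransporter (1.19), Chrdl1, a secreted BMP antagonist (-1.40), and Daam2, of Wnt signalling (0.56). Slc4a4 ran from 115 to 147 CPM in frontal cortex and from 248 to 374 CPM in striatum, and Chrdl1 from 30.9 to 45.5 CPM and from 8.44 to 27.4 CPM. Neither overlapped between the regions, but both were picked by smallest p in this comparison. Of all genes tested, 38.9% did not overlap in wild-type and 43.3% in Igf2enh-/- mice.

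Of 12 further gap junction genes (connexins, pannexins and the scaffold gene Tjp1) 10 could be tested, and 4 were called higher and 3 lower in wild-type striatum. Gjb2, the connexin 26 gene that lies 18598 bases from Gjb6 on chromosome 14, was lower in striatum like its neighbour. It ran from 6.18 to 16.4 CPM in frontal cortex and from 1.84 to 3.75 CPM in striatum, with log2 fold changes of -1.77 (SE 0.160) in wild-type and -1.96 in Igf2enh-/- mice. Gjc3 and Gjb1, connexins of oligodendrocytes, were higher in striatum, Gjc3 by a log2 fold change of 1.40 and Gjb1 by 1.94 in wild-type mice. Gjb2, Gjc3 and Gjb1 were called in both genotypes.

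Of 18 further genes of glutamate and glutamine handling, 3 were called higher and 11 lower in striatum in each genotype, with median log2 fold changes of -0.26 and -0.31. Slc25a22, a mitochondrial glutamate carrier, had a log2 fold change of -0.67 in wild-type mice, whereas Gad2 and Gad1, which make GABA from glutamate, had 1.16 and 0.67. In the complex that anchors Aqp4 at the end-feet, 14 of 15 genes reached 1 CPM in every library of both regions, and 5 of them were called higher and 3 lower in wild-type striatum. Utrn (utrophin, 0.94), Dtnb (beta-dystrobrevin, 0.58) and Hepacam (an adhesion protein of astrocytes, 0.35) were higher, Dmd (dystrophin) was lower at -0.41, and Aqp4 itself did not pass.

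The renin-angiotensin list around Agt held 14 further genes, of which 10 could be tested, and 3 were called higher and 4 lower in wild-type striatum. Mme, which encodes the peptidase neprilysin, ran from 8.51 to 14.8 CPM in frontal cortex and from 60.9 to 180 CPM in striatum (log2 fold change 3.41 in wild-type mice). Ace, the angiotensin-converting enzyme, ran from 12.4 to 19.4 CPM and from 22.9 to 90.4 CPM (1.36). Mas1, the receptor of a shorter angiotensin peptide, was lower with -0.91, and Atp6ap2, the prorenin receptor, with -0.43. Ren1, which encodes renin, had 11 counts in all 12 frontal cortex libraries together and 4 in all 15 striatal libraries, and it and the receptor genes Agtr1a, Agtr1b and Agtr2 did not reach 1 CPM in every library of either region and were not tested.

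Of 11 further intermediate filament genes tested, 6 were lower and 1 higher in wild-type striatum, the 4 of smallest p being Ina (-0.58), Lmna (-1.17), Plec (-0.41) and Nefl (-0.52), of which Ina and Nefl are neuronal filaments. Vim, the filament that astrocytes make beside Gfap, had a log2 fold change of -0.12 that did not pass in wild-type mice and one of -0.38 that passed in Igf2enh-/- mice, where library 1 held the highest frontal cortex level of 47.3 CPM. Without library 1 the second value was -0.21 and did not pass (edgeR adjusted p = 0.0984). Of 37 reactive astrocyte genes 19 reached 1 CPM in every library of both regions, and 7 were lower and 4 higher in wild-type striatum. Ptgs2 (-2.30), Serpina3n (-0.85) and S100a10 (-1.26) had the smallest p of these, all lower. Another 6 were tested through 1 region only, among them Sphk1, which ran from 3.60 to 7.09 CPM in frontal cortex and from 0.162 to 2.63 CPM in striatum. Of 13 further folate genes at 1 CPM or more in all libraries of both regions, the list of the Aldh1l1 reaction, 6 were higher and 4 lower, among them Mthfd1 (0.29) and Mthfd2 (0.49), both higher. The 5 further S100 genes tested were all called in wild-type mice, S100a16 (0.49), S100a13 (0.38) and S100a1 (0.19) higher and S100a6 (-0.52) and S100a10 lower. Of 25 transcription factors known from astrocytes, 24 reached the minimum in both regions, and 7 were higher and 10 lower, with Id4, Zbtb20 (1.21) and Gli3 (1.37) of smallest p. The other was Nkx2-1, which also marks interneurons of the striatum, and it was tested only through its striatal level. Nkx2-1 had 41 counts in all 12 frontal cortex libraries together, from 0.0378 to 0.280 CPM, and ran from 3.42 to 10.02 CPM in striatum. These log2 fold changes are of wild-type striatum over wild-type frontal cortex, and the median of all genes tested was 0.01.

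The second question was whether deletion of the enhancer changed the astrocyte genes within a region. In frontal cortex 0 of the 10 genes were called for genotype by edgeR's quasi-likelihood test, beside 0.380% of the 13936 genes tested, and in striatum 0 of 10, beside 0.0360% of 13875. DESeq2 and edgeR's likelihood ratio test called 0 of 10 in each region as well. For none of the 10 genes were the genotypes without overlap in either region, beside 1.31% and 0.216% of all genes. With all libraries, 1 of the 10 genes in frontal cortex, Gjb6, and none in striatum had an unadjusted p under 0.05. Over all genes tested the shares were 13.5% and 10.0%. The median log2 fold change of the 10 genes was 0.07 in frontal cortex and 0.05 in striatum, with 9 and 7 of the 10 above 0, against a median of 0.00 over all genes in both regions.

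In frontal cortex the log2 fold change of Gjb6 was 0.22 (SE 0.0974, edgeR adjusted p = 0.349), from a median of 47.0 CPM in wild-type to 50.1 CPM in Igf2enh-/- libraries. Library 1 held 73.6 CPM, and the other 5 Igf2enh-/- libraries lay between 46.8 and 50.9 CPM, where 4 of the 6 wild-type libraries lay between 45.6 and 50.3 CPM. Without library 1 the log2 fold change was 0.11 (SE 0.0668, edgeR adjusted p = 0.486). In striatum it was 0.16 (95% interval -0.13 to 0.44), and 0.27 without libraries 15 and 20 (SE 0.125, edgeR adjusted p = 0.532). Gfap had values of opposite sign in the regions, 0.25 in frontal cortex (95% interval -0.19 to 0.70) and -0.25 in striatum (-0.61 to 0.10). Without library 1 the former was -0.03, and without libraries 15 and 20 the latter was -0.09. The genotype groups of Gfap overlapped in both regions.

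Slc1a3 in frontal cortex was the member of next smallest p, with a log2 fold change of 0.10 (SE 0.0494, edgeR adjusted p = 0.388) and 3 of 6 Igf2enh-/- libraries above all of wild-type. Agt had the widest genotype value in striatum, 0.40 (SE 0.301, edgeR adjusted p = 0.714, 95% interval -0.24 to 1.04), and 7 of the 8 Igf2enh-/- libraries, from 7.05 to 15.9 CPM, lay within the range of the 7 wild-type libraries, with library 19 above it. In frontal cortex its log2 fold change was 0.07 (-0.26 to 0.39). With all libraries the other members lay between -0.01 and 0.09 in frontal cortex and between -0.03 and 0.08 in striatum. The narrowest interval in each region was that of Gja1, from -0.08 to 0.08 in frontal cortex and from -0.06 to 0.13 in striatum. Leaving out libraries 15 and 20 moved these other members in striatum to between 0.06 (Aqp4) and 0.15 (Slc1a2). Aldh1l1, at 0.14 (SE 0.0417), was then the member of smallest p in striatum. It was not called, nor was any other member.

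**Figure D4:**
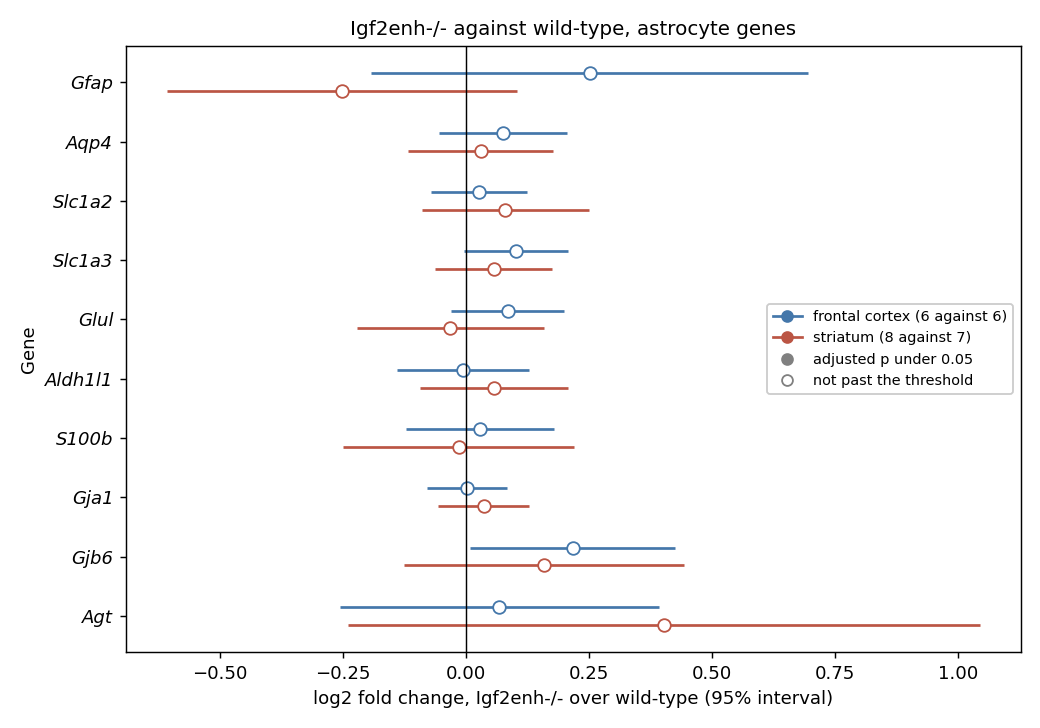
Log2 fold change of Igf2enh-/- over wild-type for the 10 genes, with 95% intervals, in frontal cortex (blue, 6 against 6 libraries) and striatum (red, 8 against 7). All 20 points are open, since none passed an adjusted p under 0.05 in edgeR, and the intervals of Agt in striatum and of Gfap in both regions are the widest.

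The lists related to the 10 genes were tested in the same fits. Of the 40 further astrocyte genes, and of the lists of glutamate handling, gap junctions, end-foot complex, intermediate filaments, reactive astrocytes, renin-angiotensin, folate, S100 and transcription factors, 0 genes were called by edgeR's quasi-likelihood test in either region, of 159 tested in frontal cortex and 160 in striatum. At an unadjusted p under 0.05 there were 21 and 11 of these, no larger a share than the 13.5% and 10.0% of all genes tested. DESeq2 and edgeR's likelihood ratio test each called 3 in frontal cortex, Mthfd1l, Sox8 and Hes1, and in striatum DESeq2 called Sox8 and Mthfd1l and the likelihood ratio test Sox8. In the quasi-likelihood test the 4 of smallest p in frontal cortex were Mthfd1l, a mitochondrial folate enzyme (log2 fold change -0.55, edgeR adjusted p = 0.0542), Sox8, a transcription factor that oligodendrocytes also use (-0.51, edgeR adjusted p = 0.0581), Cbs, of cysteine synthesis (0.23, edgeR adjusted p = 0.136), and Hes1, a Notch target (-0.35, edgeR adjusted p = 0.144). In striatum the 2 of smallest p were again Sox8 (-0.26, edgeR adjusted p = 0.153) and Mthfd1l (-0.39, edgeR adjusted p = 0.224), followed by the connexin gene Gjc1 (-0.29) and the glutamine transporter gene Slc38a5 (-0.40). The 16 oligodendrocyte genes had median log2 fold changes for genotype of -0.16 in frontal cortex and -0.29 in striatum, with 1 and 3 of them at an unadjusted p under 0.05, and their part in the values of Sox8 was not tested. Without library 1 the quasi-likelihood test called Sox8 in frontal cortex (-0.58, edgeR adjusted p = 0.0205), and the oligodendrocyte median was -0.06. Without libraries 15 and 20 that median was -0.15 in striatum.

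Sex was a term of the same fits. Called genes numbered 0 of 10 in frontal cortex (0.0431% of all genes tested) and 0 of 10 in striatum (0.0432%), and 0 of 10 in each region by DESeq2 and by the likelihood ratio test. In striatum 4 of the 10 genes had an unadjusted p under 0.05, beside 10.8% of all genes tested, all with higher levels in males. Slc1a3 had a log2 fold change of 0.19 (SE 0.0555, edgeR adjusted p = 0.448), Gfap of 0.40, Aqp4 of 0.17 and Gja1 of 0.12. Slc1a3 ran from 401 to 475 CPM in the 7 females and from 421 to 548 CPM in the 8 males. Without library 20 there were 3 of the 10 at an unadjusted p under 0.05, beside 9.01% of all genes tested. Without libraries 15 and 20 the same 4 genes had an unadjusted p under 0.05, and none was called. The values were then 0.16 for Slc1a3, 0.27 for Gfap, 0.15 for Aqp4 and 0.09 for Gja1. In frontal cortex 0 of the 10 genes had an unadjusted p under 0.05, beside 7.56% of all genes tested, and the sign was negative for 7 of the 10. The sex by genotype term of edgeR called 0 of the 10 genes in frontal cortex (0.0215% of all genes tested) and 0 in striatum (0%), with none of the 10 at an unadjusted p under 0.05, beside 6.36% and 2.56% of all genes, and none called by DESeq2. Without library 1 the frontal cortex terms of Agt (0.72) and Gja1 (0.16) had unadjusted edgeR p of 0.0112 and 0.0321. Neither was called (edgeR adjusted p = 0.645 for each).

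Across libraries most pairs of the astrocyte genes had positive correlations, and Agt had the lowest ones in striatum. Pearson correlations (r) of log2(CPM + 0.5) over all 27 libraries, with the mean of each region subtracted, were positive for 39 of the 45 pairs, with a median of 0.44 and a range from -0.30 to 0.80. These are descriptions, since the libraries share the tissue makeup and the scaling. In striatum the highest pair was Glul with Gjb6, r = 0.87 over 15 libraries, followed by Gja1 with Slc1a3 (0.78) and Aldh1l1 with S100b (0.77). Agt had a median r of -0.10 with the other 9 genes, the lowest being -0.44 with Glul. Without library 20, in which Agt was near its lowest and 6 other members at their highest, the median over all pairs was 0.30 in place of 0.49, the r of Glul with Gjb6 was 0.92, and the median of Agt was 0.28. In frontal cortex the highest pairs were Gfap with Gjb6 (0.71) and Slc1a2 with Glul (0.71), over 12 libraries, and the lowest was Gfap with S100b (-0.55). Without library 1 the median r of Gfap with the other 9 was -0.04, and Gjb6 with Glul was highest at 0.90.

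**Figure D5:**
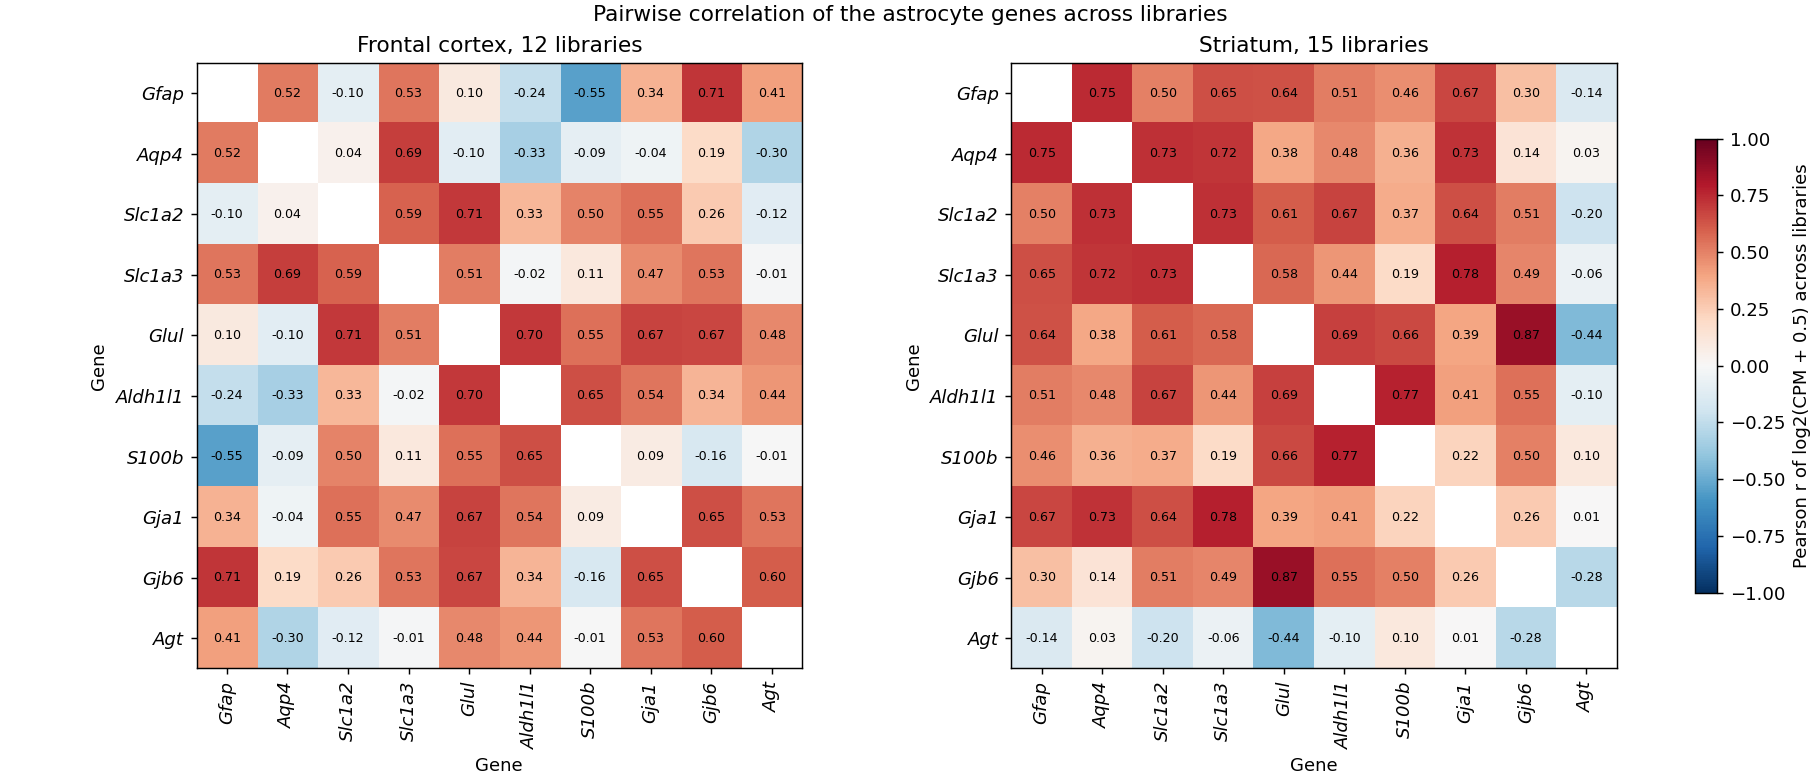
Pearson r of log2(CPM + 0.5) for each pair of the 10 genes across the 12 frontal cortex libraries (left) and the 15 striatal libraries (right). Red is positive and blue negative, and in striatum the row of Agt runs from -0.44 to 0.10, whereas the pairs among the other genes lie between 0.14 and 0.87.

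The genes most like each member were found over all genes tested, by the same r over 27 libraries with region means subtracted. Gjb6 was closest to Fam107a (r = 0.94) and Acot11 (0.85), and within striatum Fam107a was again first (0.95 over 15 libraries). Slc1a3 was closest to Ptprz1, a receptor phosphatase of glia (0.90), and Nwd1 (0.87), and Slc1a2 to Nvl (0.85) and Ptprz1 (0.82). Glul was closest to Fgfr3 (0.88) and Hepacam (0.85), both of the further astrocyte list. S100b was closest to Desi1 and Capn2 (both 0.89), Aldh1l1 to an unnamed gene and to Rspo1 (0.85), Gja1 to Cecr2 (0.81) and Arhgef26 (0.80), Aqp4 to Lrp4 and Wls (both 0.77) and Gfap to Lhfpl2 and Lrp4 (both 0.83). Agt was closest to Sparc, which encodes a secreted matrix glycoprotein, with 0.83, and to Itih3 with 0.80. Within striatum Sparc was again first for Agt, at 0.89, but without library 20 Tmem41b (0.89) and Car2 (0.88) came first. Ptprz1 was again first for Slc1a3 within striatum (0.93). For Glul other genes came first within a region, Smyd4 in striatum (0.91) and Ezr in frontal cortex (0.96). Frontal cortex alone also gave other first genes for Gjb6 (Tox2, 0.95) and for Agt (Heph, 0.94).

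Set against the level of other cell types in the 15 striatal libraries, the mean log2 level of the medium spiny neuron genes had r = -0.82 with Gfap and -0.72 with Glul, and without library 20 these were -0.58 and -0.35. The oligodendrocyte genes had r = 0.85 with S100b, and 0.73 without library 20. With Agt they had r = 0.22, and 0.74 without library 20. The 15 cortical projection neuron genes, whose mean log2 level in striatum ran from 3.59 in library 22 to 6.48 in library 20, against 6.62 to 6.81 in frontal cortex, had r = -0.44 with Agt, 0.33 with Gjb6 and 0.43 with Glul. Without library 20 these were -0.33, 0.19 and 0.21. Their part in the differences between regions was not tested.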

How the data were processed

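Total RNA was depleted of ribosomal RNA, made into libraries and sequenced as single-end reads. Raw counts per gene were deposited for each library. Before counting, the authors had cut off bases of low quality (Trim Galore 0.5.0) and run the STAR aligner on GRCm38. The strand setting of the counting is not given in the sources used here, so reads of Aqp4, Slc1a2, Aldh1l1 and Glul could be shared with RNA genes that overlap them. From the deposited counts, edgeR 4.0.16 (R 4.3.3) fitted quasi-likelihood models with TMM scaling (factors 0.978 to 1.034) and Benjamini-Hochberg adjustment over all genes tested, with an adjusted p under 0.05 as the threshold. Genotype and sex were fitted within each region on genes that reached 1 CPM in all libraries of that region (13936 in frontal cortex, 13875 in striatum). The regions were compared in 1 fit of all 27 libraries on 14397 genes that reached 1 CPM in all libraries of at least 1 region. Symbols were matched for 32688 identifiers, and of 388 listed genes 1 could not be matched. The authors counted the libraries of each region as mice, so p-values within a region measure the spread between these mice. No label says whether libraries came from separate dissections. No pair of libraries held identical counts. Sequences and gene positions are RefSeq's for GRCm38.p6, in which 9 of the 10 members had a window.

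The members and all lists were chosen with earlier results of these data known. Named besides the members were, per list, up to 4 genes of smallest p in the comparison described and all that passed where 5 or fewer did, the 2 genes most correlated with each member, Igf2, and Ttr. Some genes that this rule names are not reported here. Vim, Ren1 and the receptor genes of angiotensin were named after their values were seen. The alternatives tried were DESeq2 1.42.0, the likelihood ratio test of edgeR, DESeq2's size factors, scaling by total counts, filterByExpr, no filter, no sex term, each genotype alone for the regions, leaving out each library, and, chosen after seeing the data, leaving out libraries 1, 15 and 20, together or singly, and counting list genes only where both regions reached the minimum. The scripts were tested on simulated data.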

Additional observations from a re-analysis of the deposited data

Results flagged for a closer look

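Of 40 sets of values, the 10 genes in each of the 4 groups, 4 held a library whose gap to its nearest neighbour, divided by the range of the group, was above the 95% critical value of Dixon's test on the scale of log2(CPM + 0.5). Chance alone flags about 1 in 20 such sets. Gjb6 in library 1 was high among the Igf2enh-/- frontal cortex libraries, at 73.6 CPM and a ratio of 0.812. Library 20 was high among the wild-type striatal libraries for Gfap, at 94.8 CPM and a ratio of 0.642, and for Aldh1l1, at 66.2 CPM and a ratio of 0.591. Aqp4 in library 13 was low among the Igf2enh-/- striatal libraries, at 83.4 CPM and a ratio of 0.587, and the same library held the lowest striatal Gfap level of 29.4 CPM. On the linear CPM scale, tried after seeing the data, 6 sets passed, the same 4 and those of Gfap in library 1 (120 CPM, ratio 0.679) and of Glul in library 20 (1695 CPM, ratio 0.624). Libraries 1 and 20 also stood apart in oligodendrocyte genes, in which library 1 was lowest in frontal cortex and library 20 highest in striatum for all 16, and the part of this in the levels of Gjb6, Gfap, Aldh1l1 and Glul was not tested.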

How the results depend on the processing

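The 10 genes had 1150 alternative log2 fold changes for region in each genotype and for genotype in each region, with sex and interaction terms not among them. Of these, 1141 had the direction and the side of the threshold reported or were called in neither, 4 lost the call, 5 gained one and 0 reversed a call. All 9 changes among these values came from leaving out libraries. Slc1a2 (-0.15) and Slc1a3 (-0.14) gained a call in wild-type mice without library 20, as did Slc1a3 without library 26 (-0.13). Leaving out 1 library at a time gave 5 to 7 called genes for the regions in each genotype and 0 in every case for genotype, sex and their interactions. Outside the 1150 values, a choice of processing did change a call. With no filter on low counts the sex by genotype term in frontal cortex called 1 of the 10 genes, Gfap (-0.50). It called 310 genes in all in place of 3, and the cause was not tested. The numbers of all genes called depended on the tool. For genotype they were 53 in frontal cortex and 5 in striatum, 232 and 56 with the likelihood ratio test, 242 and 112 with DESeq2, 459 and 10 with no filter and 13 in striatum with filterByExpr. Leaving out 1 library gave 8 to 99 (library 1) and 3 to 8. For sex they were 6 in each region, up to 185 with no filter in frontal cortex and 16 with DESeq2 in striatum. The sign changed under 45 alternatives for values called in neither fit, among them Gfap and S100b between regions in wild-type mice under total count scaling (0.01 and 0.00). No paired analysis was possible because the library numbers are not shared between groups and no label ties libraries to the same mouse. Agt, with 49 to 93 counts per frontal cortex library, has the widest counting error of the 10.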

Other observations

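The further cell type lists differed between the regions in their own ways. The counts are of genes that reached 1 CPM in every library of both regions, since the others entered the test through the region where they are high. All 13 such medium spiny neuron genes were called higher in wild-type striatum, and of 12 cortical projection neuron genes 8 were lower and 4 higher. Of 10 oligodendrocyte precursor genes 8 were higher and none lower, of 13 microglial genes 11 were higher and none lower, and of 14 endothelial genes 2 were higher and none lower. Of 10 subventricular zone genes 5 were higher and 2 lower, of 6 ependymal genes 5 were higher and none lower, and of 3 choroid plexus genes none was higher and 1 lower. Beside these wild-type counts stand 34.6% higher and 34.2% lower of all genes tested. With the deletion 6 of the 13 microglial and 7 of the 10 oligodendrocyte precursor genes were higher and none lower. Subventricular zone genes then had 6 higher and 1 lower, choroid plexus genes 1 of each, and the other lists the same counts. For genotype in frontal cortex, 1 endothelial gene, Itm2a (log2 fold change -0.26, edgeR adjusted p = 0.0448), and 1 gene of the meningeal list, Igf2 itself (0.77, edgeR adjusted p = 0.0285), were called by edgeR's quasi-likelihood test. Of the 19 meningeal genes tested there, Igf2 among them, 18 lay above 0, with a median of 0.18. At an unadjusted p under 0.05 were 7 of the 19, beside 13.5% of all genes tested. These values include library 1, an Igf2enh-/- library that was the highest of frontal cortex for 13 of the 20 meningeal genes. The part of meningeal tissue in the value of Igf2 was not tested. In striatum Igf2 was not called with all libraries (0.89, edgeR adjusted p = 0.386) and was called without libraries 15 and 20 (0.44, edgeR adjusted p = 0.0198).

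In the striatum, 32 of the 40 further astrocyte genes had higher fitted levels in males, 10 of them at an unadjusted p under 0.05, beside 10.8% of all genes tested, and 0 called by edgeR, with a median log2 fold change of 0.09 against 0.00 over all genes tested. Without library 20, from a male and the highest in striatum for 25 of these 40 genes, 28 were higher in males, 6 at an unadjusted p under 0.05 (9.01% of all genes), and the median was 0.06. The 16 medium spiny neuron genes were all on the side of females in the same fit, with a median of -0.28, and -0.20 without library 20, the lowest for all 16 of them, and 0 called in either case.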
